A study of Mus musculus with 12 samples.

Results

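The 10 genes described here encode prostaglandin-synthesizing enzymes and the receptors for prostaglandin E2 in the mouse. They comprise the cyclooxygenases Ptgs1 and Ptgs2, the terminal synthases Ptges, Ptgis, Ptgds and Tbxas1, and the receptors Ptger1, Ptger2, Ptger3 and Ptger4. They were taken by symbol from the 28244 genes in the deposited matrix, and all 10 passed the filter on low values. The set was chosen by function, and also by a measured value, the peak of Ptgs2 at day 10, which was already known. For that reason, Ptgs2 was not tested in any comparison, and no member was tested in a comparison that includes day 10. Those values are given as a description, while the other 9 members were tested between the remaining time points.

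Libraries were made from pellets of mesenchymal (cartilage) progenitors of C57/BL6 mice, isolated by collagenase digestion from the heads and condyles of femurs and tibiae of pups aged 5 or 6 days. All pellets received chondrogenic medium for 7 days, and some were harvested at that point (D7). The other pellets were moved to osteogenic medium and harvested 1 day (D8), 3 days (D10) or 21 days (D28) later, with 3 libraries per time point and 12 in all. There was no pellet kept in chondrogenic medium beyond D7 among these libraries, so time in culture and the change of medium cannot be told apart. The labels do not say whether replicates came from separate animals or cultures, so p-values measure only the spread between these samples, which may be technical.

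Prostaglandins are lipid mediators made on demand and not stored. A phospholipase A2 releases arachidonic acid from membranes, a cyclooxygenase converts it to prostaglandin H2, and a terminal synthase turns that intermediate into prostaglandin E2, prostacyclin, prostaglandin D2 or thromboxane. Ptgs1 encodes the cyclooxygenase that most tissues express constitutively, and Ptgs2 the one that growth factors, cytokines and mechanical load induce. In the skeleton, prostaglandin E2 is known as a regulator of both bone formation and resorption and of growth plate chondrocytes.

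The authors deposited, for each gene and library, the log2 of the equalized read count plus 1, and every log2 value below is on that scale. The equalization gave the libraries nearly the same distribution of values, so their original totals are not kept. Relative depth, estimated from genes with few reads, ranged from 0.730 to 1.06 at D7 and D10, from 0.962 to 1.22 at D8 and from 1.20 to 1.31 at D28. Depending on the library, 3 reads stood at a log2 value of at most 2.87, and values around that level carry large counting error. Ptgds, Tbxas1 and Ptger1 were at or near this level in most libraries, whereas the cyclooxygenases, Ptges and Ptgis were far above it. The chondrocyte markers (9 genes) and osteoblast markers (8 genes) were all detected at every time point. The summed unlogged level of the chondrocyte markers was 2634888 to 2655081 at D7 and 1249263 to 1312717 at D10, with 6 of 9 called lower. Most of this sum is Col2a1, which was at the largest value in the file in the D7, D8 and D28 libraries and was not called at D10 (limma adjusted p = 0.16). Markers of other cells were also present, with sums at D7 and D10 of 3937 to 4701 and 949 to 1408 for adipocytes (5 of 6 called lower) and of 2361 to 2972 and 224 to 326 for skeletal muscle (5 of 6 called lower). In these bulk samples, fewer cells of a type and less RNA per cell cannot be told apart.

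Promoter sequence was available for 8 members in the RefSeq table of GRCm38.p6. Those of Ptgs2, Ptgs1 and Ptges are shown because these 3 well-expressed genes of 1 pathway had different time courses, described in the next paragraphs. Each line gives the 250 bases before the annotated start, 5′ to 3′ on the strand of the gene. Capitals mark matches to the C/EBP palindrome TTGCGCAA or to the GC box GGGCGG, searched on both strands.
Ptgs2, chr1:150099781-150100030, plus strand: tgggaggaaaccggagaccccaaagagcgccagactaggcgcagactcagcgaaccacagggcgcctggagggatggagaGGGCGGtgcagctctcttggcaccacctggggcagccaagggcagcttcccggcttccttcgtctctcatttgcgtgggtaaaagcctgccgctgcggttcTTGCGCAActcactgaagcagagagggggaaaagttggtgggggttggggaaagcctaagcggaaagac
Ptgs1, chr2:36230176-36230425, plus strand: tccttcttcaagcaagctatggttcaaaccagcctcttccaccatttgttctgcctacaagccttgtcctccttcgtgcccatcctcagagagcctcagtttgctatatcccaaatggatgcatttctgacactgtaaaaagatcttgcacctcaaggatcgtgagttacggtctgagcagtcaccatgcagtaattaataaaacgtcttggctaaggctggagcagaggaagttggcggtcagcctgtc
Ptges, chr2:30903298-30903547, minus strand: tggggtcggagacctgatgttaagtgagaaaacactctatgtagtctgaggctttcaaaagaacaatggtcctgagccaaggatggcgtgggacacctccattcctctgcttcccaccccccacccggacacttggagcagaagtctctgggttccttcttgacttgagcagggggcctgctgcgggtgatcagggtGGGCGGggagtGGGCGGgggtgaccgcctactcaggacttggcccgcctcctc
The Ptgs2 window held the C/EBP palindrome with its first base at position -69 from the start and a GC box at -170. The Ptges window held 2 GC boxes, and the Ptgs1 window held a match to none of the motifs searched. The windows of Ptgs1 and Ptgs2 lie upstream of the gene in both annotations. The noncoding gene Ptgs2os starts 68 bases upstream of Ptgs2 on the other strand. Named after its values were seen, Ptgs2os had log2 values of 3.45, 0.74 and 3.01 at D7 and of 4.31, 4.19 and 4.73 at D10, the D7 values standing for 9, 1 and 5 reads. The Ptges window lies upstream of its RefSeq model but inside the longer span of its GENCODE model.

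In Ptgs2, the core of a cAMP response element (ACGTCA) and an E-box (CACGTG) shared bases just after the annotated start, in the first exon. The 30 bases from that start, with both matches in capitals, are shown on the next line.
Ptgs2, chr1:150100031-150100060, plus strand: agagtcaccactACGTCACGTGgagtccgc
Over all 32851 RefSeq promoters, with windows of 250 bases before and 50 bases after the start, TTGCGCAA was present in 0.18%, the ACGTCA core in 7.51%, the E-box in 7.15% and the GC box in 35.7%. Among the 8 members with a sequence, the first 3 motifs were found in Ptgs2 alone, and the GC box in Ptgs2, Ptges, Ptger3 and Ptger4. The AP-1 motif TGANTCA, in 7.81% of all promoters, was found in Ptgds and Tbxas1. TATAAA, in 13.6%, was found in Tbxas1, and the NF-kB consensus, in 4.51%, in Ptgds. The motifs were chosen with the Ptgs2 sequence in view, and a match describes letters in a window and not a bound site.

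Ptgs2 encodes cyclooxygenase-2 and lies at chr1:150100031-150108227 on the plus strand of GRCm38. Its log2 value was 8.73, 8.87 and 8.51 in the D7 libraries, 11.34, 11.26 and 11.04 at D8, and 13.84, 13.47 and 13.89 at D10. At D28 it was 9.01, 7.06 and 8.27. The libraries of D8 all lay above those of D7, and those of D10 above those of D8, while D28 overlapped D7. The mean was 2.51 higher at D8 than at D7, equal to 5.70-fold, and 5.03 higher at D10 than at D7, equal to 32.6-fold. From D10 to D28 the mean dropped by 5.62. The spread between replicates was 0.16 to 0.23 (SD, n = 3) at the first 3 time points and 0.99 at D28, where replicate 2 was lowest. As the gene was chosen for this pattern, these differences were not tested.

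Ptgs1 encodes cyclooxygenase-1 (chr2:36230426-36252272, plus strand). The log2 values of Ptgs1 were 9.92, 9.55 and 9.91 at D7, and 10.15, 9.95 and 9.84 at D8. At D10 they were 9.55, 10.10 and 10.15, and at D28 they were 10.37, 9.69 and 9.92. The 4 groups overlapped one another, and no group mean differed from another by more than 0.20. In the tested comparisons, the log2 fold change was 0.19 (SE 0.18, limma adjusted p = 0.53) for D8 against D7 and 0.20 (SE 0.18, limma adjusted p = 0.44) for D28 against D7. For D28 against D8 it was 0.01 (SE 0.18, limma adjusted p = 0.97).

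**Figure D1:**
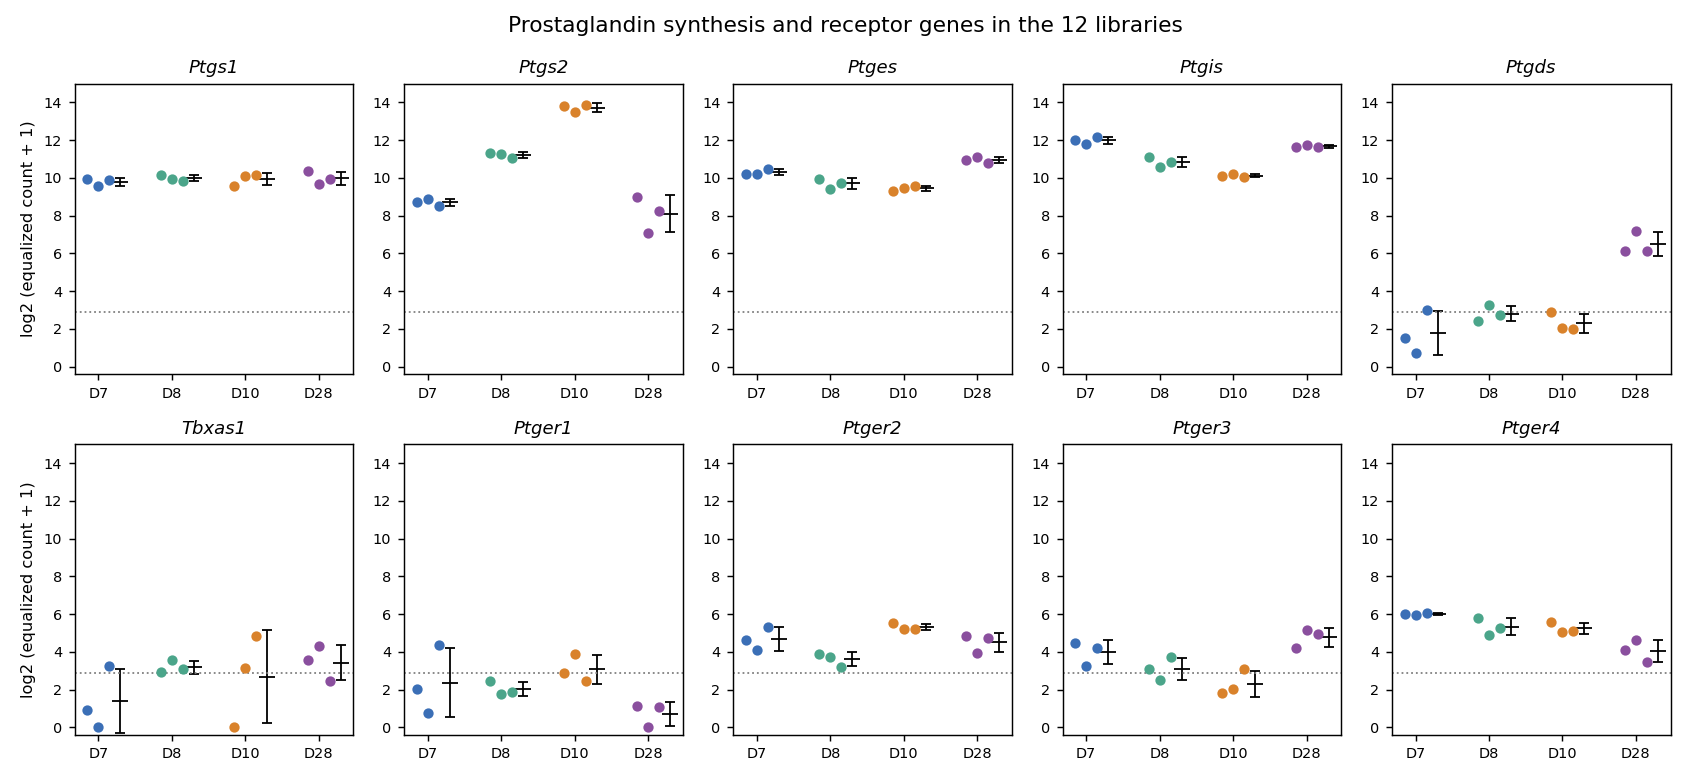
Log2 of the equalized count plus 1 (y axis) of the 10 genes in the D7, D8, D10 and D28 libraries (x axis). Points are libraries, black bars are the mean ± SD of 3 libraries, and the dotted line at 2.87 is the highest level of 3 reads. Ptgs2 rises above every other member at D10, Ptges and Ptgis have their lowest means there, and Ptgds leaves the lowest levels only at D28.

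Since a longer transcript yields more reads, levels of different genes were compared after unlogging the values and dividing by the exon length of the GENCODE M21 gene, 3.884 kb for Ptgs1 and 4.58 kb for Ptgs2. That length joins the exons of all annotated transcripts of a gene. On this scale, Ptgs2 made up 27.1%, 34.5% and 24.3% of the sum of both cyclooxygenases in the D7 libraries. Its share was 66.0%, 67.7% and 66.1% at D8 and 94.3%, 89.8% and 91.9% at D10. At D28 the share was 24.8%, 12% and 21.3%. Ptgs1 was the more abundant cyclooxygenase transcript in every D7 and D28 library, and Ptgs2 in every D8 and D10 library. Without the length correction, Ptgs2 minus Ptgs1 was -1.09 ± 0.37 on the log2 scale at D7 and 1.23 ± 0.06 at D8. It was 3.80 ± 0.46 at D10 and -1.88 ± 0.67 at D28 (SD, n = 3 each), with the same order of the 2 genes. These shares contain the gene chosen for its pattern and were not tested.

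**Figure D2:**
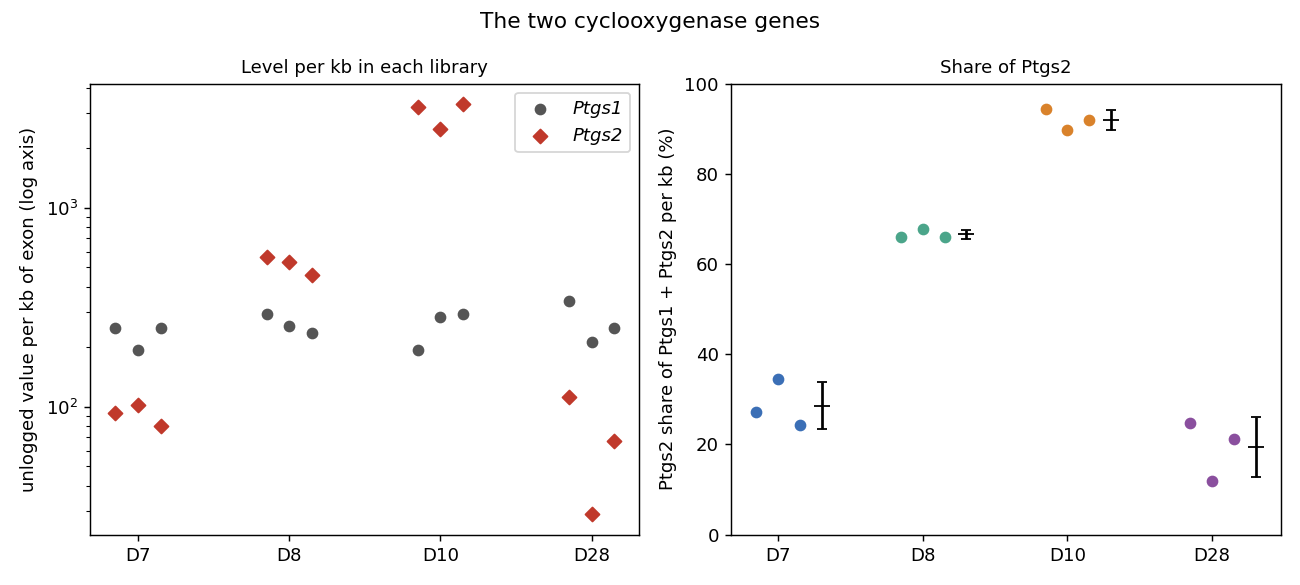
Left, unlogged value per kb of exon of Ptgs1 and Ptgs2 in each library (log axis), by time point. Right, Ptgs2 as a percentage of both, with the mean ± SD of 3 libraries in black. The Ptgs1 points stay between 193 and 340.2, whereas the Ptgs2 points pass from below them at D7 to above them at D8 and D10 and below them again at D28.

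Among the member synthases, Ptgis and Ptges had their lowest means at D10, where Ptgs2 was highest. Ptgis, the prostacyclin synthase (chr2:167191805-167240604, minus strand), had log2 values of 12, 11.82 and 12.16 at D7 and 11.13, 10.60 and 10.82 at D8. At D10 the values were 10.10, 10.21 and 10.06, and at D28 they were 11.63, 11.75 and 11.63. The D10 libraries lay below all others and the D7 libraries above all others. From D7 to D8, 4 of 6 adipocyte markers, 2 of 6 muscle markers and 1 of 9 chondrocyte markers were also called lower. Of 8 osteoblast markers, 3 were called higher and 3 lower, and 2 of 6 endothelial markers were called higher (summed level 22 to 50 at D7 and 58 to 235 at D8). The part of these cells in the Ptgis values was not tested. Ptgis fell by 1.14 from D7 to D8 (SE 0.13, limma adjusted p = 2.1e-05), a 2.20-fold lower level. It was the only member called in that comparison, 1 of 9 tested, where 7.04% of all 17674 genes tested were called (a log2 difference of 1 or more in either direction, with a Benjamini-Hochberg adjusted p under 0.05). By D28 the fold change against D7 was -0.32 (limma adjusted p = 0.057). For D28 against D8 the fold change of 0.82 (limma adjusted p = 9.2e-05) did not reach the fold threshold.

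Ptges encodes the inducible, microsomal prostaglandin E synthase, which is often induced together with Ptgs2 in inflamed tissue (chr2:30889471-30929863, minus strand). Its log2 values were 10.20, 10.23 and 10.50 at D7, 9.96, 9.44 and 9.73 at D8, and 9.32, 9.46 and 9.58 at D10. At D28 they were 10.94, 11.10 and 10.81, above every earlier library. Ptges rose by 1.24 from D8 to D28 (SE 0.14, limma adjusted p = 3.2e-06), a 2.36-fold higher level. In that comparison 6 of 6 adipocyte and 6 of 10 macrophage markers were called higher, and their part in the Ptges and other member values was not tested. Both other tested differences stayed under the fold threshold, at -0.60 for D8 against D7 (limma adjusted p = 0.0056) and 0.64 for D28 against D7 (limma adjusted p = 0.0017). The D10 mean was 0.85 below that of D7 with no overlap, and 0.26 below that of D8, with which it overlapped. Across the 12 libraries, Pearson's r with Ptgs2 was -0.894 for Ptges and -0.944 for Ptgis, against 0.157 for Ptgs1. The libraries share 4 time points, so these coefficients describe the time courses and carry no p.

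Ptgds, the lipocalin-type prostaglandin D synthase, is known as an abundant product of brain and of several mesenchymal tissues (chr2:25466709-25470046, minus strand). Its transcript had log2 values of 1.54, 0.74 and 3.01 at D7, which stand for 2, 1 and 5 reads. They were 2.44, 3.26 and 2.74 at D8, 2.87, 2.03 and 1.97 at D10, and 6.13, 7.21 and 6.12 at D28, the last standing for 102, 185 and 100 reads. All D28 libraries lay above all others. Ptgds rose by 4.72 from D7 (SE 0.56, limma adjusted p = 8.8e-06) and by 3.67 from D8 (SE 0.56, limma adjusted p = 8.3e-05) to D28. As the D10 libraries held 3 reads at most, D28 was at least 12.2-fold higher than D10, computed against the floor of 3 reads per library. The D28 pellets also had a higher summed level of the 6 adipocyte markers (Adipoq, Plin1, Fabp4, Cfd, Pparg and Lep), 41052 to 55913 unlogged against 3937 to 4701 at D7. The part of these cells in the Ptgds values was not tested.

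Tbxas1, the thromboxane synthase of platelets and macrophages, was at the lower end of the measured range (chr6:38875404-39084585, plus strand). Tbxas1 values were 0.94, 0 and 3.26 at D7 and 2.92, 3.55 and 3.07 at D8. At D10 they were 0, 3.17 and 4.86, and at D28 they were 3.55, 4.29 and 2.44. All groups overlapped, and the 20 reads of D10 replicate 3 stood beside 0 reads in D10 replicate 1. No tested difference was called, with 1.78 for D8 against D7 (limma adjusted p = 0.24) and 2.03 for D28 against D7 (limma adjusted p = 0.13). Without D7 replicate 3 the latter was 2.96 and passed (limma adjusted p = 0.04). The summed level of 10 macrophage markers was 306 to 430 at D7 and 684 to 2936 at D28, with 3 of the 10 called higher. The summed level of 5 platelet and megakaryocyte markers was 79 to 89 at D7 and 90 to 207 at D28, with 1 of 3 tested called higher (Gp1bb and Ppbp were at 0 in all D7 and D8 libraries). Their part in the Tbxas1 values was not tested. The Tbxas1 span overlaps Hipk2 and several noncoding genes, most of them on the other strand.

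The 4 receptors for prostaglandin E2, EP1 to EP4, couple to different signals. EP2 and EP4 raise cAMP, EP3 mostly lowers it, and EP1 acts through calcium. Ptger4, encoding EP4, had the highest receptor level per kb of exon at D7 (9.55 ± 0.24, SD, n = 3). At D28 Ptger3, Ptger2 and Ptger4 stood at 4.79 ± 1.54, 4.35 ± 1.42 and 2.50 ± 1.04, with overlapping mean ± SD ranges between neighbours in that order. All receptors were far below the enzymes Ptgis, Ptges, Ptgs1 and Ptgs2, which had no mean under 69.4 per kb at any time point.

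Ptger4 (chr15:5206661-5244187, minus strand) was the only one of the 4 prostaglandin E2 receptors called lower in a tested comparison. Measured values were 6.02, 5.97 and 6.04 at D7, 5.82, 4.92 and 5.29 at D8, and 5.58, 5.07 and 5.10 at D10. At D28 they were 4.11, 4.62 and 3.45, below every earlier library. Ptger4 fell by 1.95 from D7 to D28 (SE 0.35, limma adjusted p = 0.00038), a 3.86-fold lower level, and by 1.28 from D8 to D28 (SE 0.35, limma adjusted p = 0.0076). Skeletal muscle markers were also lower at D28, with 6 of 6 called against D7 and a summed level of 66 to 124 against 2361 to 2972 at D7, and their part in the Ptger4 values was not tested. The Ptger4 call against D8 was lost without D28 replicate 3, where the fold change was -0.98 (limma adjusted p = 0.042). Ptger4 overlaps Ttc33 on the other strand, and whether the counting used the strand of the reads is not given in the sources used here.

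Ptger3, encoding EP3 (chr3:157566892-157645888, plus strand), had log2 values of 4.49, 3.27 and 4.22 at D7 and 3.10, 2.52 and 3.71 at D8. At D10 the values were 1.81, 2.03 and 3.07, and at D28 they were 4.20, 5.14 and 4.95. The D28 libraries lay above those of D8 and D10 and overlapped D7. Ptger3 rose by 1.66 from D8 to D28 (SE 0.50, limma adjusted p = 0.015), a 3.15-fold higher level. That call was lost without D8 replicate 2 (1.36, limma adjusted p = 0.069) or without D28 replicate 2 (1.47, limma adjusted p = 0.059). The D10 values stand for 1, 2 and 5 reads, so the lower D10 mean rests on few reads.

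Ptger2, encoding EP2 (chr14:44988195-45003820, plus strand), had its highest mean at D10, as did Ptger1. Its libraries had log2 values of 4.64, 4.09 and 5.34 at D7, 3.91, 3.71 and 3.20 at D8, 5.53, 5.23 and 5.20 at D10, and 4.86, 3.92 and 4.73 at D28. The D10 libraries lay above those of D8, by 1.71 on average, but overlapped those of D7. The tested differences were -1.08 for D8 against D7 (limma adjusted p = 0.065), 0.90 for D28 against D8 (limma adjusted p = 0.084) and -0.18 for D28 against D7 (limma adjusted p = 0.76). The first was called without D7 replicate 2 (-1.38, limma adjusted p = 0.032), and the second without D28 replicate 2 (1.19, limma adjusted p = 0.038).

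Ptger1, encoding EP1 (chr8:83666678-83672753, plus strand), was close to the lowest measured levels. Ptger1 values were 2.03, 0.74 and 4.34 at D7, 2.44, 1.77 and 1.87 at D8, 2.87, 3.91 and 2.44 at D10, and 1.12, 0 and 1.06 at D28. The D28 libraries held 2, 0 and 2 reads, against 4, 2 and 3 at D8 and 3, 9 and 3 at D10. On the equalized scale the D28 libraries lay below those of D8 and D10, a separation that rests on few reads. No tested difference was called: the fold changes were -0.34 for D8 against D7 (limma adjusted p = 0.81), -1.64 for D28 against D7 (limma adjusted p = 0.10) and -1.30 for D28 against D8 (limma adjusted p = 0.19). D7 replicate 3, with 14 reads, set the D7 mean. Without it the D8 against D7 difference was 0.64 in the other direction.

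Counted over the members, Ptgds rose and Ptger4 fell from D7 to D28, 2 of 9 tested, while 17.3% of all genes were called in that comparison. From D8 to D28, Ptgds, Ptges and Ptger3 rose and Ptger4 fell, 4 of 9 tested, beside 19.7% of all genes. The median log2 fold change of the 9 members was -0.60, 0.20 and 0.82 for D8 against D7, D28 against D7 and D28 against D8, and that of all genes was 0.03, -0.03 and -0.08. In comparisons with D10, 5 of 10 members did not overlap with D7 (1 higher, 4 lower) and 8 of 10 did not overlap with D28. Of all genes, 47.5% and 59.4% did not overlap in these comparisons. The rule used D10, so nothing is read from those counts. The comparisons share libraries and are not independent of one another.

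The order of the enzymes per kb of exon also changed with time. Because the exon lengths join all annotated transcripts, the order of genes at similar levels, such as Ptgs1 and Ptges, depends on the annotation. At D7 Ptgis stood at 1595 ± 188, Ptges at 324 ± 38.6, Ptgs1 at 229.9 ± 32 and Ptgs2 at 91.2 ± 11.1 (SD, n = 3). At D10 Ptgs2 stood first at 2992 ± 450.3, followed by Ptgis at 434 ± 23.5, Ptgs1 at 256 ± 54.6 and Ptges at 179 ± 15.6. At D28 the D7 order was back, with Ptgis at 1270.0 ± 63.9, Ptges at 505 ± 49.8, Ptgs1 at 267 ± 65.9 and Ptgs2 at 69.4 ± 41.7. Ptgds followed at 57.5 ± 27.5, within the spread of Ptgs2. At D8 the mean ± SD ranges of Ptgs1 and Ptges, 261 ± 29.1 and 215 ± 39.0, overlapped.

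The rest of the pathway was followed in 4 lists with 34 genes, of which 31 were tested: phospholipases A2, other prostanoid synthases, other prostanoid receptors, and breakdown and transport. From D7 to D8, 4 rose and 2 fell, beside 7.04% of all genes. From D7 to D10, 8 rose and 7 fell, beside 18.9% of all genes tested that were called. From D10 to D28, 6 rose and 7 fell, beside 27.5%, and from D7 to D28, 3 rose and 1 fell, beside 17.3%.

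Pla2g4a, the cytosolic phospholipase A2 that releases arachidonic acid, lies 138.7 kb from Ptgs2 on the same chromosome. Its log2 values were 10.17, 10.66 and 9.96 at D7, 11.16, 11.14 and 10.78 at D8, 12.71, 12.58 and 12.71 at D10, and 9.02, 8.59 and 8.63 at D28. No time points overlapped. Pla2g4a rose by 2.40 from D7 to D10 (SE 0.17, limma adjusted p = 3.3e-08) and fell by 3.92 from D10 to D28 (SE 0.17, limma adjusted p = 5.5e-11). It ended 1.52 below D7 (limma adjusted p = 3.4e-06).

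Secreted phospholipases followed other courses. Pla2g2e rose by 1.51 from D7 to D8 (limma adjusted p = 0.0038) and by 1.98 from D7 to D10 (limma adjusted p = 0.00017). Pla2g5 fell by 1.99 from D7 to D10 (limma adjusted p = 2.9e-06) and then rose, to 4.24 above D7 at D28 (limma adjusted p = 1.5e-09). Pla2g2a had log2 values of 2.03, 2.79 and 1.37 at D7 and of 12.03, 11.49 and 11.25 at D28, a rise of 9.53 (limma adjusted p = 3.1e-09). Pla2g2a is known to carry a frameshift in the C57BL/6 strain, and it lies within the span of Pla2g5 on the other strand. From D7 to D28, 6 of 6 adipocyte and 3 of 10 macrophage markers were also called higher, and their part in the values of these phospholipases was not tested.

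Among the other synthases, Ptges3, the cytosolic prostaglandin E synthase also known as the chaperone p23, rose by 1.00 from D7 to D10 (limma adjusted p = 1.2e-05). Akr1b3, an aldo-keto reductase, rose by 1.12 (limma adjusted p = 0.00079), and Akr1c18, a related reductase with at most 3 reads in each D7 library, was at least 2.90-fold higher (limma adjusted p = 0.0025). Prxl2b, the prostamide and prostaglandin F synthase, fell by 1.63 over the same interval (limma adjusted p = 2e-06). Cbr2, a carbonyl reductase, was called only at D28, 2.03 above D7 (limma adjusted p = 3.9e-07).

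The receptors of other prostanoids divided in direction. Ptgir, the prostacyclin receptor, had log2 values of 4.80, 4.36 and 5.24 at D7 and 7.80, 6.24 and 6.54 at D10, and rose by 2.06 (SE 0.47, limma adjusted p = 0.0025), while the values of Ptgis, which makes its ligand, were lowest at D10. It fell by 2.49 from D10 to D28 (limma adjusted p = 0.00036). Ptgfr, the prostaglandin F receptor, fell by 1.40 from D7 to D10 (limma adjusted p = 0.00033). Tbxa2r, the thromboxane receptor, had values of 4.35, 4.00 and 4.34 at D7 and of 0, 2.50 and 0 at D10. As the D10 libraries held 3 reads at most, it was at least 2.56-fold lower there (limma adjusted p = 0.0018). Ptgdr2, a prostaglandin D2 receptor, also fell and was at least 1.22-fold lower (limma adjusted p = 0.046).

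Hpgd, which inactivates prostaglandins by oxidizing the 15-hydroxyl group, had a course opposite to that of Ptgs2. Its log2 values were 10.26, 9.79 and 9.95 at D7, 8.51, 8.63 and 8.46 at D8, 7.04, 7.15 and 6.72 at D10, and 9.84, 9.54 and 9.30 at D28. Hpgd fell by 1.47 from D7 to D8 (limma adjusted p = 2.1e-05) and by 3.03 from D7 to D10 (SE 0.16, limma adjusted p = 3.4e-09), an 8.18-fold lower level. It rose by 2.59 from D10 to D28 (limma adjusted p = 4.6e-09). The summed adipocyte markers were also lower at D8 (1799 to 2425) and D10 (949 to 1408) than at D7 (3937 to 4701), and stood at 41052 to 55913 at D28. From D7 to D10, 6 of 9 chondrocyte and 5 of 6 skeletal muscle markers were called lower and 0 higher. Of 8 osteoblast markers, 3 were called higher and 4 lower in that interval. From D7 to D28, 2 of 9 chondrocyte markers were called lower and 1 higher, and the part of these cells in the Hpgd values was not tested. Ptgr1, a prostaglandin reductase of a later breakdown step, rose by 1.56 from D7 to D10 (limma adjusted p = 5.8e-06). The exporter Abcc4 rose by 1.36 from D7 to D8 (limma adjusted p = 3.7e-06), and the uptake carrier Slco2a1 by 1.01 (limma adjusted p = 0.016).

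**Figure D3:**
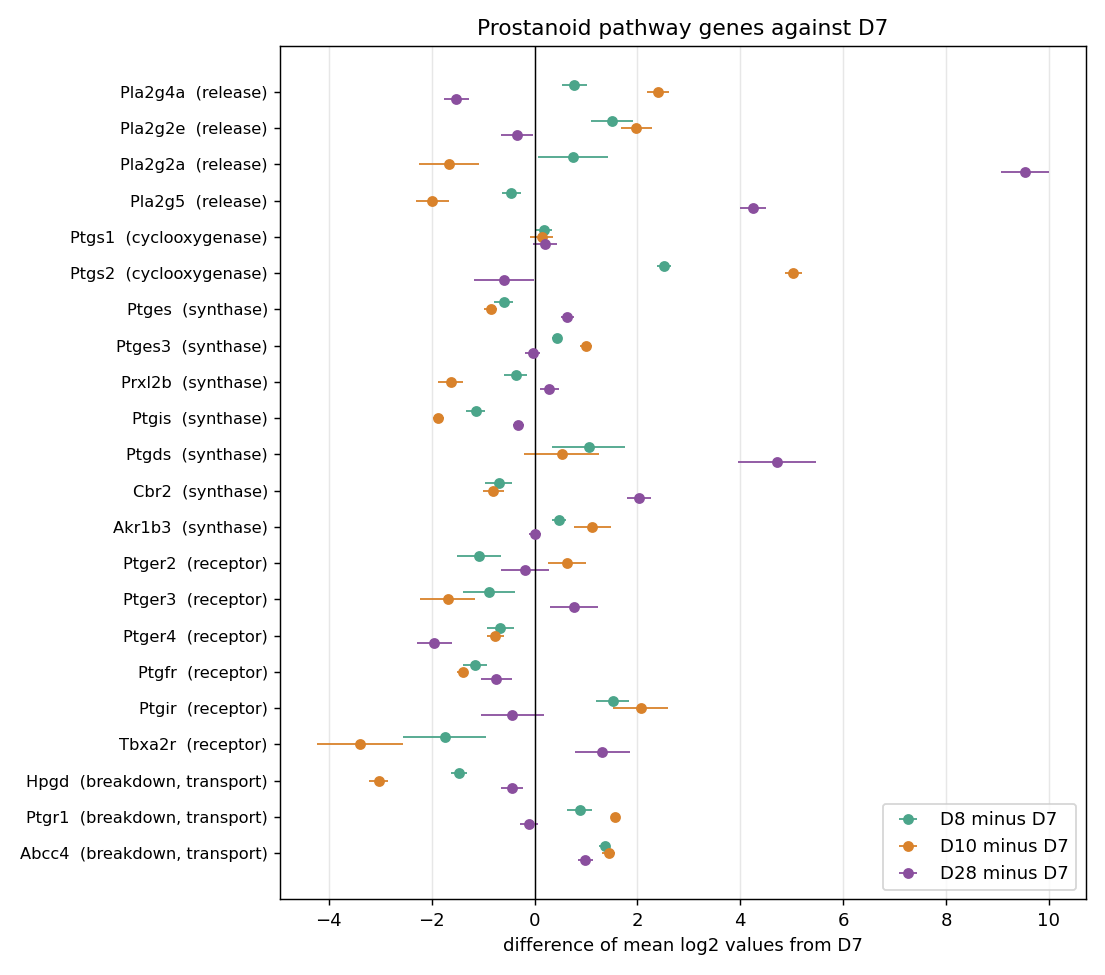
Difference of mean log2 values from D7 (x axis) at D8, D10 and D28. The y axis holds 8 members and other prostanoid pathway genes, with their step. Of the pathway genes named in the text, Akr1c18, Ptgdr2 and Slco2a1 are not shown. Bars are standard errors from the SD of 3 libraries in each group. At D10 Ptgs2, Pla2g4a and Ptgir lie to the right, Hpgd, Ptgis and Tbxa2r lie to the left, and Ptgs1 stays close to 0.

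Genes that respond to cAMP, the messenger of EP2, EP4 and the prostacyclin receptor, were listed next. Of 14 genes, 3 rose from D7 to D10 and 1 fell, beside 18.9% of all genes, while the median of the list was 0.35 beside 0.05 for all genes. Areg, an EGF receptor ligand, had log2 values of 0.94, 0 and 0 at D7 and 8.20, 6.86 and 7.49 at D10. The D7 libraries held 3 reads at most, so D10 was at least 25.0-fold higher (limma adjusted p = 3.5e-07). Gem, a small GTPase, rose by 2.10 (limma adjusted p = 1.8e-07) and Crem, a cAMP-responsive transcription factor, by 1.20 (limma adjusted p = 0.00034). Per1, a clock gene, fell by 1.25 (limma adjusted p = 1.2e-05).

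Of the 12 interleukin 1 and NF-kB genes, 4 rose and 2 fell from D7 to D10, beside 18.9% of all genes. Il6 rose by 3.28 (limma adjusted p = 0.0014), Cxcl2 was at least 3.20-fold higher (limma adjusted p = 0.00012), and Cxcl1 rose by 2.22 (limma adjusted p = 0.0049). Il1rn, the interleukin 1 receptor antagonist, fell by 2.84 (limma adjusted p = 1.3e-08). The cytokine Il1b stood at 0 in all D10 libraries, and Tnf in 2 of the 3. Macrophage markers (10 genes) had a summed unlogged level of 306 to 430 at D7 and 500 to 1016 at D10, with 1 called higher and 4 lower. The part of macrophages in the cytokine values was not tested. Mast cells are a known source of prostaglandin D2 and of cytokines. Of their 6 listed markers, Mcpt4, Tpsb2 and Fcer1a were at 0 in all libraries and Cpa3 and Hdc in all D7 and D10 libraries, so the summed unlogged level of 6 to 11 at D7 and 38 to 99 at D10 is that of Kit.

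In the lipoxygenase branch, which competes for the same arachidonic acid, 3 of 11 tested genes rose and 2 fell from D7 to D28, beside 17.3% of all genes. Alox12, the platelet-type 12-lipoxygenase, had log2 values of 12.51, 12.41 and 12.48 at D7 and of 7.87, 6.38 and 7.42 at D28. It fell by 5.24 (SE 0.25, limma adjusted p = 8.9e-10), a 37.9-fold lower level. From D7 to D28, 6 of 6 skeletal muscle markers were called lower, and 6 of 6 adipocyte and 3 of 10 macrophage markers higher. The part of these cells in the values of Alox12 and the other genes of this branch was not tested. Ltb4r1, a leukotriene B4 receptor, fell by 1.78 (limma adjusted p = 0.021). Cysltr2, a cysteinyl leukotriene receptor at 0 in all D7 libraries, was at least 2.45-fold higher (limma adjusted p = 0.0013). Ltc4s, the leukotriene C4 synthase, rose by 2.15 (limma adjusted p = 0.012). Its D7 log2 values were 2.66, 1.54 and 0, with 2 of 3 libraries at 3 reads or fewer, so the size of that rise is uncertain.

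The 5 genes whose pattern was most like that of Ptgs2, by Pearson's r over the 12 libraries among 12180 genes with a mean log2 value of at least 5, were Arc (0.985), Sh2d5 (0.984), Met (0.984), Cd300lb (0.982) and Ica1 (0.982). Arc, known as an activity-induced gene of neurons, had a mean log2 value of 8.55 ± 0.07 at D7, which increased to 10.50 ± 0.20 by D8 and 12.25 ± 0.28 by D10 and stood at 8.02 ± 0.30 in the D28 libraries (SD, n = 3). Met is the receptor of hepatocyte growth factor and Cd300lb an immunoglobulin-type receptor of myeloid cells. Cd300lb was 4.22, 4.09 and 4.72 at D7 and 9.41, 9.48 and 9.94 at D10. Of the other members, Ptgs1, Ptges, Ptgis and Ptger4 reached that mean and were not among the 5, and no p is given because the points share the 4 time points.

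**Figure D4:**
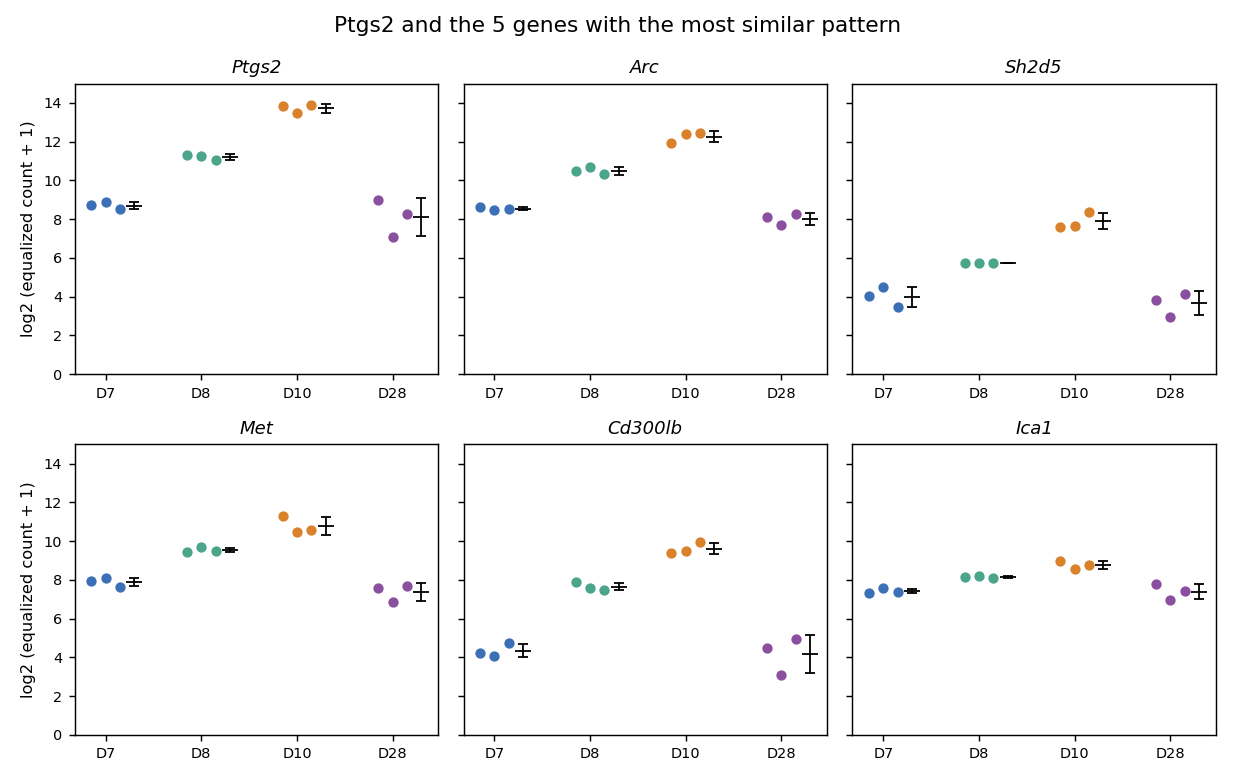
Log2 of the equalized count plus 1 (y axis) of Ptgs2 and the 5 genes with the highest Pearson's r with it, by time point (x axis). Points are libraries and black bars the mean ± SD of 3 libraries. All 6 genes are highest at D10, and in all 6 D28 replicate 2 is the lowest of its group.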

How the data were processed

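Total RNA of pellet samples was sequenced as 12 stranded poly(A) libraries. The labels describe a pair of library kits without saying which libraries each was used for, and give no batch or date, so batches could not be examined. Per the submitters' processing notes, the tools were Trimmomatic 0.36, HISAT2, Cufflinks and HTSeq, and the build was GRCm38, whereas the study's methods name hg38. Symbols in the file are those of the mouse. The values deposited by the authors are on a log2 scale, taken after 1 was added to each equalized count, with replicates kept apart.

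A gene entered the fit if 3 or more libraries reached a log2 value of 1 (17674 genes), and 1 mean per time point was fitted to all 12 libraries with limma 3.58.1 in R 4.3.3 (trended prior, two-sided moderated p, Benjamini-Hochberg adjustment over all genes tested). Calls needed a log2 difference of 1 or more in either direction and an adjusted p under 0.05. Apart from cell type markers and genes that overlap a member, the genes named are members, called genes of fixed lists (at most 4 per list and comparison, by size) or the 5 most like Ptgs2, with Ptgs2os, Il1b and Tnf added after their values were seen. The members and lists were chosen with earlier results of these data known. Positions and exon lengths are those of GENCODE M21. Read counts of low values come from their rank among the distinct values of a library, and cover counting error only, as no molecular identifiers were used. The fit was tested on simulated data.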

Additional observations from a re-analysis of the deposited data

How the results depend on the processing

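Calls were repeated with other filters, a pseudocount of 0.1, median-of-ratios scaling, low values raised to the 3-read level, the study's own rule, other fold thresholds, a replicate block and each library left out in turn. With adjusted p alone, 2 members were called for D8 against D7, and 12, 20 and 11 other pathway genes for D8 against D7, D28 against D10 and D28 against D7. With a log2 fold change of at least 2, the members called were 0, 1 and 1 for D8 against D7, D28 against D7 and D28 against D8, and other pathway genes 0 for D8 against D7 and 6 for D10 against D7. With limma's unadjusted p under 0.05 and no fold threshold, there were 3, 5 and 6 members for D8 against D7, D28 against D7 and D28 against D8, and 16 other pathway genes for D8 against D7. Leaving out 1 library gave 1 to 2, 2 to 3 and 3 to 4 members, and 4 to 7 pathway genes for D8 against D7.

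Some uncalled differences changed direction with 1 library left out. For D8 against D7, Ptger1 ranged from -1.16 (without D7 replicate 2) to 0.64 (without D7 replicate 3). For D28 against D7, Ptger2 ranged from -0.48 to 0.14 (without D7 replicate 3), with 0.11 without D28 replicate 2. For D28 against D8, Ptgs1 ranged from -0.18 (without D28 replicate 1) to 0.16, with -0.06 without D8 replicate 3, and Tbxas1 from -0.19 (without D28 replicate 2) to 0.74. The causes were not tested.

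The labels do not say whether replicate numbers pair the samples. Same-numbered libraries deviated with correlations of -0.058 to 0.066, and 3 of 12 correlated best with their own number. Such correlations cannot show whether samples shared a preparation. With a replicate block, the members called stayed at 1, 2 and 4, and the pathway genes were 6, 14, 13 and 5. Ptgds, Tbxas1, Ptger1 and Ptger3 are limited by reads.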
